A study of Mus musculus with 40 samples.

Results

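Spp1, Ncam1, Epcam, Sox9, Sox4, Prom1, Cd24a and Cftr are markers of oval cells and of the bile duct epithelium, and they were chosen by name as 8 of the 55487 genes listed in a liver RNA-seq time course. All 8 were among the 20297 genes that passed the filter on low counts. RNA was taken from whole liver of female mice on the C57BL/6JBomTac background. Hepatocyte-specific Nampt knockout (HNKO) mice carried Nampt fl/fl and 1 Alb-Cre transgene, in which the albumin promoter drives the recombinase in hepatocytes, and their WT littermates carried the floxed allele. All mice had eaten a fortified breeding chow since weaning and were 9 weeks old when they were moved to PD, a purified control diet. Livers were collected at days 3, 6, 12 and 21 of this diet, although the labels state these numbers as ages. With the 2 libraries described as Failed QC left out, there were 5, 4, 5 and 5 WT livers and 5, 5, 6 and 3 HNKO livers at days 3, 6, 12 and 21, so 38 of 40 libraries were used. The question was when markers of progenitor cells and ducts differed between HNKO and WT livers, and whether they varied together from liver to liver. No liver from before the change of diet was in the series. A difference present at day 3 may therefore have arisen before or after that change.

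Nampt makes nicotinamide mononucleotide from nicotinamide, the step that recycles NAD in most cells. In injured liver, small epithelial cells at the portal tracts can multiply into strings and irregular ducts, which is called the oval cell or ductular reaction. These cells share many markers with cholangiocytes, the cells that line bile ducts. Spp1 encodes osteopontin, a secreted matrix protein of cholangiocytes that macrophages and injured cells also make. Ncam1 is a neural cell adhesion molecule found on reactive ductules and also on stellate cells and nerves. Epcam, Prom1 (CD133) and Cd24a are surface proteins of many epithelial and progenitor cells. Sox9 and Sox4 are transcription factors that act together when bile ducts form, and Cftr is the chloride channel that drives bicarbonate secretion into bile. In RNA of a whole liver, more cells of a type cannot be told apart from more RNA per cell.

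The genes lie on 7 chromosomes of mouse build GRCm38. All are protein coding, and counts came from their exons. Spp1 lies at chr5:104435118-104441050 on the plus strand and Prom1 at chr5:43993620-44102032 on the minus strand. Ncam1 lies at chr9:49502136-49798925 (minus), Epcam at chr17:87635979-87651129 (plus), Cd24a at chr10:43578284-43584265 (plus) and Sox9 at chr11:112782224-112787760 (plus). Sox4, a gene with 1 exon, lies at chr13:28948919-28953713 (minus), and Cftr at chr6:18170687-18322768 (plus). Of the 51-base stretches of Sox4, 54.1% also occur in Gm26735, a lincRNA on the opposite strand with a median count of 0, and 11.5% of those of Spp1 also occur in Gm42793, with a median count of 4.5. Whether the counting used the strand is not given in the sources used here, so the absolute level of Sox4 is uncertain. The share was 5.01% for Prom1, 3% for Ncam1, 2.67% for Cd24a, 1.06% for Cftr and 0% for Epcam and Sox9.

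The promoters held by the reference used here are shown for 5 of the 8 genes: Spp1 and Prom1 with 2 start sites each, and Epcam, Sox4 and Cftr. The part of these promoters in the levels below was not tested. Each window runs from 250 bases before to 50 bases after a RefSeq start (GRCm38.p6), is written 5′ to 3′ on the strand of the gene, and has matches to 5 motifs in capitals. The motifs, searched on both strands, were SOX (ACAANG), TEAD (GGAATG), RBPJ (TGGGAA), AP-1 (TGANTCA) and HNF4 (CAAAGTCCA).
Spp1, chr5:104434861-104435160, plus: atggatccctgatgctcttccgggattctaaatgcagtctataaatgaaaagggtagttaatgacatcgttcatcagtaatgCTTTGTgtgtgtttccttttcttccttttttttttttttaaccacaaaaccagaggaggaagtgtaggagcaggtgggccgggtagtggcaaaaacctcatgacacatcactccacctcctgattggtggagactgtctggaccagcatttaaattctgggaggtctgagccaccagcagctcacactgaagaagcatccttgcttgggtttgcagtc
Spp1, chr5:104435942-104436241, plus: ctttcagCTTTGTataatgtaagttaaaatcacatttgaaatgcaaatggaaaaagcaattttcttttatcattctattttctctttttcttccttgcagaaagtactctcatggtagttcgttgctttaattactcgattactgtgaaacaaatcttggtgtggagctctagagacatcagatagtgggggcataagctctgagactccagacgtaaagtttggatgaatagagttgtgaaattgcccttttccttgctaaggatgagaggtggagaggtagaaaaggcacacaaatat
Epcam, chr17:87635729-87636028, plus: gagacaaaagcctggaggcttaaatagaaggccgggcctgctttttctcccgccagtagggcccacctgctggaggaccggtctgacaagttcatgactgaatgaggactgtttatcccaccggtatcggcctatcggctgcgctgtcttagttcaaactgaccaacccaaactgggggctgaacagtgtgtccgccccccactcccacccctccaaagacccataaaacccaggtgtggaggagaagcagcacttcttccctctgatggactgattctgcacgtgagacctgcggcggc
Prom1, chr5:44101687-44101986, minus: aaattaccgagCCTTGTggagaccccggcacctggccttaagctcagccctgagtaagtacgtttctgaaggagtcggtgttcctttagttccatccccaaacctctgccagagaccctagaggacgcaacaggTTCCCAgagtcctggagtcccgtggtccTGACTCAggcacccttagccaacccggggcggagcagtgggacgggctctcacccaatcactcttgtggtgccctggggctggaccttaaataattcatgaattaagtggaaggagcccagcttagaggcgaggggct
Prom1, chr5:44094719-44095018, minus: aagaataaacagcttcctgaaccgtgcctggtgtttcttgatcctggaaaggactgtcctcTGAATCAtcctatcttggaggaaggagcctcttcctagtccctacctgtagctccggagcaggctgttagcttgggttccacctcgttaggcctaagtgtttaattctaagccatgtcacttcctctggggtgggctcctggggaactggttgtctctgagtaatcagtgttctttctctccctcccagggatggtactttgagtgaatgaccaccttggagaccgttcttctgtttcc
Sox4, chr13:28953650-28953949, minus: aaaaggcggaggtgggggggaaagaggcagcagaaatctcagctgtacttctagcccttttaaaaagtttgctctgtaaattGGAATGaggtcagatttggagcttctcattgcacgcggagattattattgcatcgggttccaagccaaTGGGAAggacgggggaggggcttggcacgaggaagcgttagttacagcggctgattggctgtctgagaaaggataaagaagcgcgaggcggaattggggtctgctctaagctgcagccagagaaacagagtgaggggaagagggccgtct
Cftr, chr6:18170437-18170736, plus: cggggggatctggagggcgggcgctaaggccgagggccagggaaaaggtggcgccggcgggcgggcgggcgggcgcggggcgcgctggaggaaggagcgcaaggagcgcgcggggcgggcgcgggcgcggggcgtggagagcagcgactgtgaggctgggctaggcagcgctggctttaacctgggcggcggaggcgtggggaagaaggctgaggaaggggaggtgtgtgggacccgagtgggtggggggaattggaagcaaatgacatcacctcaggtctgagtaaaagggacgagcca
Both Spp1 windows held 1 SOX match, starting at -168 and -243 from the start site, and the first Prom1 window held 1 at -239. The SOX letters occur in 41.2% of all 32851 promoters. RBPJ letters, present in 25.6% of promoters, were found at -116 in the first Prom1 window and at -100 in Sox4. TEAD letters (14.7% of promoters) were found at -168 in Sox4, and AP-1 letters (7.81%) at -88 and -189 in the Prom1 windows. HNF4 letters, present in 0.475% of promoters, did not occur in these windows, and Epcam and Cftr held no match to any of the 5. Ncam1, Cd24a and Sox9 are the other members.

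Total counts of the 38 libraries ranged from 16151037 to 64181492, with a median of 26466478.5. Nampt, the gene that was knocked out, was lower in HNKO livers by a log2 fold change of -0.93, -0.90 and -0.82 at days 3, 6 and 12 (edgeR, adjusted p = 0.0193, 0.0128 and 0.0208), and was at -0.69 at day 21 (adjusted p = 0.161). The summed level of 7 hepatocyte genes lay between 54300 and 139000 CPM (counts scaled to the size of the library) in every library. Library labels form one series numbered to 21 and a second above it, and the HNKO livers of day 21 used here were all in the second. HNKO library 35 of day 12 stood apart in several epithelial genes, and values without it are given below for many results.

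The fitted level of each of the 8 genes exceeded that of WT in HNKO livers at every time point, and all but Prom1 passed the test at 2 or more of the 4 days. At day 3, 6 of the 8 were called higher (edgeR quasi-likelihood test, adjusted p under 0.05 over all genes tested), where 2.95% of all tested genes were. At day 6, 7 of the 8 were called higher against 8.42% of all genes, at day 12, 6 against 4.56%, and at day 21, 6 against 2.21%. The day 21 count fell to 2 without HNKO library 37 and to 3 without WT library 41. None was called lower at any day, as 1.71%, 4.37%, 3.27% and 0.916% of all genes were. Spp1, Ncam1, Epcam, Sox4 and Cftr were called higher at all 4 days, as were 0.823% of all genes. The median log2 fold change of the 8 genes was 1.73, 1.76, 1.54 and 1.77 from day 3 to day 21, while the median of all tested genes stayed between -0.01 and 0.01. Within each series of library labels, all 8 genes had a higher mean in HNKO than in WT livers in 7 of 7 comparisons. The difference was as low as 0.02 log2 CPM for Prom1 (day 6, second series) and 0.18 for Sox9 (day 12, second series). These comparisons hold 2 or 3 livers per group, and the share of all genes was not counted. Day 21 was compared in the second series only.

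**Figure D1:**
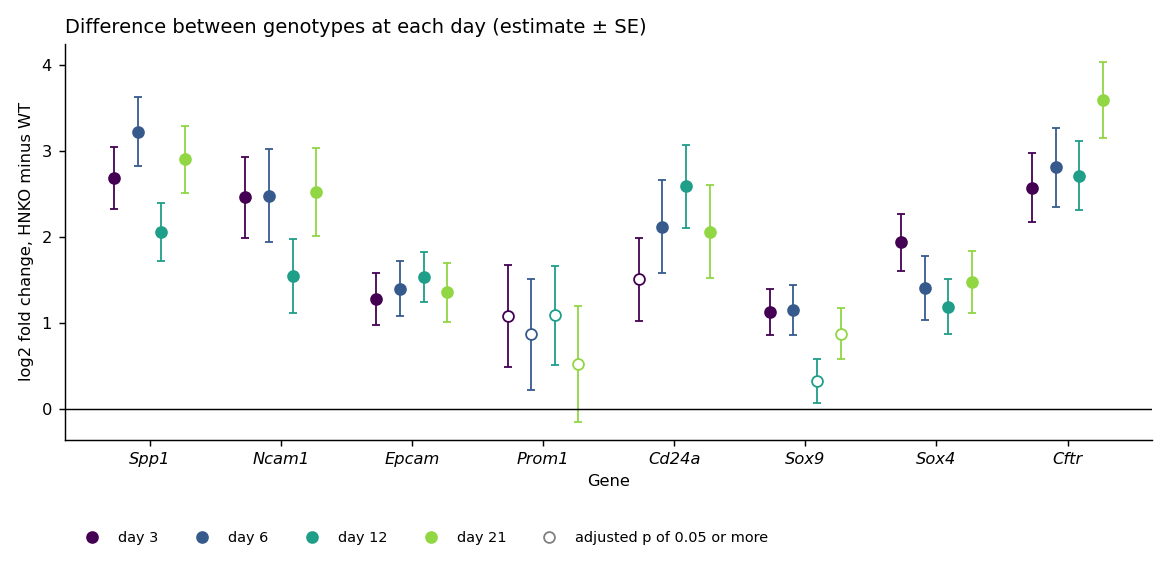
Fitted log2 fold change of each gene, HNKO minus WT, at days 3, 6, 12 and 21 of PD, with bars of 1 SE and open circles where the adjusted p was 0.05 or more. The estimate for Cftr at day 21 is the highest point at 3.59, Prom1 is open at all 4 days, and the Sox9 estimate at day 12 lies near 0 at 0.33.

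Among the matrix and adhesion genes, Spp1 was called higher at all 4 days. In the 5 WT livers of day 3 its level was 5.29, 5.24, 5.30, 5.22 and 5.26 log2 CPM, and in the 5 HNKO livers 8.57, 8.11, 6.78, 6.66 and 8.49. At day 6 the WT livers had 5.22, 4.85, 5.05 and 5.34, and the HNKO livers 7.24, 7.61, 9.51, 8.15 and 8.05. WT livers hardly varied, while HNKO livers spread over more than 1 log2 unit on either day and never reached down into the WT range. At day 12 the WT livers had 5.01, 5.01, 5.02, 5.21 and 5.12, and the 6 HNKO livers ranged from 6.53 through a median of 7.17 to 7.69. At day 21 the WT livers had 5.09, 5.28, 5.22, 5.28 and 4.9, and the HNKO livers 8.86, 6.94 and 7.74. The groups did not overlap at any day. Spp1 was 6.39-fold, 9.32-fold, 4.16-fold and 7.48-fold higher in time order (log2 fold changes 2.68 ± 0.36, 3.22 ± 0.40, 2.06 ± 0.34 and 2.90 ± 0.39, SE), with edgeR adjusted p of 5.28e-05, 6.75e-06, 0.000626 and 9.27e-05. Without HNKO library 37 the day 21 log2 fold change was 2.25 (adjusted p = 0.0108).

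Ncam1 rested on few reads, with 3 to 40 counts in WT and 22 to 183 in HNKO libraries. At day 3 its level was -0.13, -0.93, -2.0, -1.02 and -0.01 log2 CPM in WT and 2.49, 0.97, 1.03, 0.22 and 2.52 in HNKO livers. At day 6 the WT livers had -0.98, -1.21, -0.41 and -1.29, and the HNKO livers 0.95, 1.91, 1.81, 0.83 and 0.95. On both days every HNKO liver was above every WT liver. At day 12 the WT livers had 0.62, -0.10, 0.29, -0.06 and -0.92, and the HNKO livers ranged from 0.62 through 1.33 to 2.56. At day 21 the WT livers had -0.43, -1.0, -0.62, -0.84 and -0.36, and the HNKO livers 2.58, 0.06 and 1.61. The lowest HNKO liver met the highest WT liver at day 12 but not at day 21. The fitted differences (log2 fold changes) were 2.46 ± 0.47 (SE), 2.48 ± 0.54, 1.55 ± 0.43 and 2.52 ± 0.51 from day 3 to day 21, with edgeR adjusted p of 0.00334, 0.00231, 0.0252 and 0.00545. The call at day 12 ended when HNKO library 13 was left out (1.19, adjusted p = 0.0925), and also without WT library 15, 33 or 34 (1.51, 1.52 and 1.36; adjusted p = 0.0587, 0.0554 and 0.0677), and the call at day 21 ended without HNKO library 37 (1.82, adjusted p = 0.269).

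**Figure D2:**
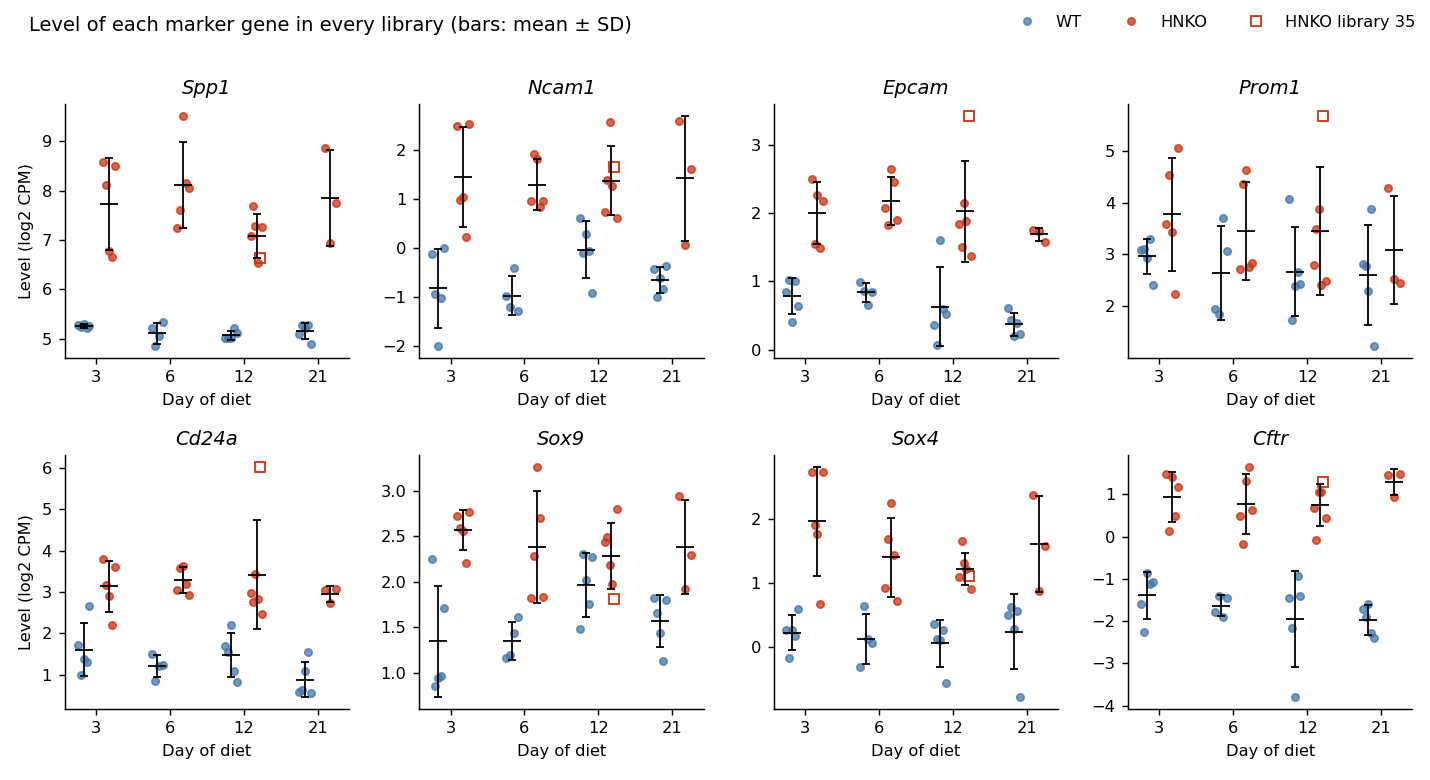
Level (log2 CPM, vertical axis) of each gene in every library by day of PD (horizontal axis), WT in blue and HNKO in red, with bars of the mean ± SD and the HNKO library 35 of day 12 as an open square. Spp1 and Cftr keep HNKO and WT livers apart at all 4 days, Prom1 overlaps at all of them, and library 35 is highest of all for Epcam (3.42), Prom1 (5.67) and Cd24a (6.02).

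Of the epithelial surface genes, Epcam had the most even difference. At day 3 WT livers had 0.84, 1.02, 0.40, 1.01 and 0.64 log2 CPM and HNKO livers 2.50, 1.54, 2.26, 1.49 and 2.18. At day 6 WT livers had 0.99, 0.86, 0.66 and 0.85, and HNKO livers 2.07, 1.83, 2.64, 2.45 and 1.90. The groups were separate on both days. WT livers of day 12 had 0.36, 0.07, 1.6, 0.59 and 0.53, and HNKO livers ranged from 1.37 through 1.86 to 3.42. At day 21 WT livers had 0.61, 0.44, 0.20, 0.39 and 0.23, and HNKO livers 1.75, 1.74 and 1.57. At day 12 WT library 16, the liver at 1.6, lay above 2 HNKO livers, and at day 21 the groups were separate again. Log2 fold changes were 1.28 ± 0.30 (SE), 1.40 ± 0.32, 1.54 ± 0.29 and 1.36 ± 0.34, with edgeR adjusted p of 0.0126, 0.00385, 0.00228 and 0.0224. The call at day 3 ended without HNKO library 2 (1.13, adjusted p = 0.0526). At day 21 it ended without HNKO library 37 (1.34, adjusted p = 0.239), WT library 21 (1.30, 0.0535) or WT library 41 (1.33, 0.0505).

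Cd24a was not called at day 3 and was 4.33-fold, 6.03-fold and 4.18-fold higher at days 6, 12 and 21. At day 3 WT livers had 1.71, 0.99, 1.39, 1.30 and 2.65 log2 CPM and HNKO livers 3.79, 3.17, 2.91, 2.21 and 3.6, so that 1 WT liver reached into the HNKO range. Without that liver, WT library 26, Cd24a was called at day 3 (1.88, edgeR adjusted p = 0.0339), as it was without HNKO library 22 (1.68, 0.0321). WT library 26 also had a B cell list mean of 2.94 log2 CPM, against 0.24 to 0.58 in the other livers of day 3. The part of B cells in its Cd24a level was not tested. At day 6 WT livers had 1.51, 0.86, 1.21 and 1.23, and HNKO livers 3.05, 3.59, 3.62, 3.20 and 2.93, with a gap of more than 1 log2 unit between the groups. At day 12 WT livers had 1.69, 1.55, 2.21, 1.10 and 0.83, and HNKO livers ranged from 2.47 through 2.91 to 6.02, the value of library 35. At day 21 WT livers had 0.58, 0.63, 1.10, 1.54 and 0.57, and HNKO livers 3.04, 2.73 and 3.08. The groups overlapped at day 3 alone. In time order the log2 fold changes were 1.51 ± 0.48 (SE), 2.12 ± 0.54, 2.59 ± 0.48 and 2.06 ± 0.54, with edgeR adjusted p of 0.0593, 0.00849, 0.0021 and 0.0315. Without library 35 the day 12 value of Cd24a was 1.43 ± 0.29 (adjusted p = 0.00455), so that library raised the estimate by more than 1 log2 unit without deciding the call. The day 21 call was less firm, as it ended in 6 of 8 fits that left out 1 liver, which were those without WT library 19, 20, 21 or 41 and without HNKO library 37 or 40 (log2 fold change 1.99 to 2.12, adjusted p from 0.0542 to 0.261).

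Prom1 was the only gene of the 8 that was called at no day. At day 3 WT livers had 3.08, 3.10, 2.93, 3.29 and 2.41 log2 CPM and HNKO livers 3.59, 4.53, 3.44, 2.24 and 5.06. At day 6 WT livers had 1.94, 1.85, 3.71 and 3.07, and HNKO livers 2.71, 4.35, 4.62, 2.76 and 2.83. The groups overlapped on both days. By day 12 the WT livers had 4.07, 1.74, 2.40, 2.67 and 2.44, and HNKO livers ranged from 2.41 through 3.15 to 5.67. At day 21 WT livers had 2.82, 2.77, 2.30, 3.88 and 1.23, and HNKO livers 4.28, 2.52 and 2.45. Only library 35 exceeded every WT liver at day 12, and only library 37 at day 21. Log2 fold changes were 1.08 ± 0.59 (SE), 0.87 ± 0.64, 1.09 ± 0.57 and 0.53 ± 0.67, with edgeR adjusted p of 0.304, 0.412, 0.236 and 0.752. Without library 35 the day 12 value was 0.25, and without library 37 the day 21 value was -0.34.

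The duct transcription factor Sox9 was called higher at days 3 and 6. At day 3 WT livers had 2.25, 0.85, 0.94, 0.96 and 1.71 log2 CPM and HNKO livers 2.72, 2.59, 2.56, 2.20 and 2.77. At day 6 WT livers had 1.16, 1.19, 1.43 and 1.61, and HNKO livers 1.82, 2.28, 3.26, 2.7 and 1.83. A single WT liver at day 3 reached above the lowest HNKO liver, and at day 6 none did. WT livers of day 12 had 1.48, 2.30, 2.02, 1.75 and 2.27, and HNKO livers ranged from 1.81 through 2.30 to 2.80. At day 21 WT livers had 1.82, 1.65, 1.43, 1.13 and 1.80, and HNKO livers 2.94, 1.92 and 2.29. The groups overlapped widely at day 12, where the WT mean was 1.96, and were just separate at day 21. Sox9 was 2.19-fold higher at day 3 (log2 fold change 1.13 ± 0.27 SE, adjusted p = 0.0137, edgeR) and 2.22-fold at day 6 (1.15 ± 0.29, adjusted p = 0.00836), and it was at 0.33 ± 0.25 at day 12 (adjusted p = 0.451) and 0.88 ± 0.30 at day 21 (adjusted p = 0.0947). The day 3 call ended without WT library 25 (1.01, adjusted p = 0.0528) and the day 6 call without HNKO library 29 (0.87, adjusted p = 0.0612).

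Sox4, a transcription factor of the same family, was called at all 4 days. At day 3 WT livers had 0.27, -0.17, 0.27, 0.17 and 0.60 log2 CPM and HNKO livers 2.73, 1.91, 1.76, 0.67 and 2.72. At day 6 WT livers had -0.31, 0.64, 0.13 and 0.06, and HNKO livers 0.92, 1.68, 2.25, 1.43 and 0.72. The lowest HNKO liver was close to the highest WT liver on both days, with no overlap. At day 12 WT livers had 0.36, 0.12, 0.11, 0.26 and -0.56, and HNKO livers ranged from 0.91 through 1.16 to 1.65. At day 21 WT livers had 0.50, 0.63, 0.28, 0.57 and -0.78, and HNKO livers 2.37, 0.88 and 1.58. Again there was no overlap. The log2 fold change was 1.94 ± 0.33 (SE), 1.41 ± 0.37, 1.19 ± 0.32 and 1.48 ± 0.36 from day 3 to day 21, with edgeR adjusted p of 0.00142, 0.00962, 0.022 and 0.0208. The calls ended at day 6 without HNKO library 29 (1.14, adjusted p = 0.06), at day 12 without WT library 34 (1.05, adjusted p = 0.0586), and at day 21 without HNKO library 37 (1.02, adjusted p = 0.476) or WT library 41 (1.30, adjusted p = 0.0576).

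Cftr, the channel gene, was the least abundant of the 8 in WT livers, with 0 to 17 counts per library, against 17 to 103 in HNKO livers. At day 3 WT livers had -1.59, -2.26, -0.87, -1.12 and -1.08 log2 CPM and HNKO livers 1.49, 0.14, 1.41, 0.49 and 1.17. At day 6 WT livers had -1.79, -1.40, -1.91 and -1.45, and HNKO livers 0.48, -0.17, 1.31, 1.65 and 0.62. Every HNKO liver was above every WT liver. At day 12 WT livers had -1.45, -2.17, -3.80, -0.92 and -1.41, where -3.80 is WT library 16 with no Cftr read, and HNKO livers ranged from -0.07 through 0.86 to 1.29. At day 21 WT livers had -1.70, -1.91, -1.6, -2.29 and -2.40, and HNKO livers 1.45, 0.95 and 1.49. The separation held at these days too. Cftr was 5.94-fold, 7.0-fold, 6.55-fold and 12.1-fold higher at days 3, 6, 12 and 21 (log2 fold change 2.57 ± 0.40 SE, 2.81 ± 0.46, 2.71 ± 0.40 and 3.59 ± 0.44), with edgeR adjusted p of 0.000588, 0.000163, 0.000158 and 3.69e-05. Leaving out any 1 liver changed no call for Cftr or Spp1.

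Of the 8 genes, the 3 genes Spp1, Sox4 and Cftr kept HNKO livers above WT livers with no overlap at all 4 days, which 0.379% of all genes did. Day by day, such separation was seen for 5, 7, 4 and 7 of the 8, against 2.31%, 8.08%, 2.65% and 7.25% of all genes. In exact two-sided permutation tests of each gene and day on log2 CPM, unadjusted over 32 tests, Prom1 gave p between 0.175 and 0.482 and Sox9 at day 12 gave p = 0.182. The other 27 gave p between 0.00216 and 0.0238, where the smallest p the group sizes allow is 0.00794 at days 3 and 6, 0.00216 at day 12 and 0.0179 at day 21. With all 40 libraries the Epcam difference at day 21 was 0.35 instead of 1.31 (exact permutation p = 0.873), and that of Cftr was 2.23 instead of 3.27 (p = 0.0476).

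The data did not show when the difference between genotypes was largest. None of the members had an interaction of genotype with day over the 4 days that passed (edgeR, unadjusted p from 0.11 for Sox9 to 0.931 for Epcam), and neither did any other gene after adjustment, while 966 genes, 4.76% of those tested, had an unadjusted p under 0.05. DESeq2 called no member either. Single contrasts of the difference between days were run against day 3 alone. The closest of them was Sox9, whose difference between genotypes was 0.80 ± 0.37 (SE, log2) smaller at day 12 than at day 3 (unadjusted p = 0.0356, edgeR adjusted p = 0.695). Its WT livers were at 0.54 ± 0.27 at day 12 against day 3, and its HNKO livers at -0.26 ± 0.25.

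Within one genotype, no member changed over the days by the edgeR test, against 5.84% of all genes in WT and 7.9% in HNKO livers. In WT livers no member had an unadjusted p under 0.05 over the 4 days, against 21.2% of all genes. In HNKO livers Spp1 was nearest (unadjusted p = 0.00589, adjusted p = 0.063), with a day 12 level at -0.80 ± 0.32 (SE) against day 3. DESeq2 called this one gene (adjusted p = 0.0215). Sox4 followed (unadjusted p = 0.0297, where 22.9% of all genes were under 0.05, adjusted p = 0.163), with a day 12 level at -0.92 ± 0.30 against day 3. Leaving out HNKO library 22 of day 3 gave 2 calls, and leaving out HNKO library 4, 6, 7, 12, 37 or 38 gave 1.

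Per length of exon, Spp1 stood far above the rest. Its median was 22.5 CPM per kilobase in WT livers (range 17.4 to 24.5, n = 19) and 118 in HNKO livers (55.9 to 442, n = 19). In WT livers the medians of Prom1 (0.939), Cd24a (0.882), Sox9 (0.723) and Epcam (0.665) were close, and their ranges over livers overlapped. Sox4 (0.235, range 0.106 to 0.31), Ncam1 (0.0667, 0.0206 to 0.17) and Cftr (0.0333, 0 to 0.0613) lay lower. Sox4 was below every WT value of Sox9 (0.418 to 1.17), but its place is uncertain because of the stretches it shares with Gm26735. It overlapped with Ncam1, as Ncam1 did with Cftr. In HNKO livers Cd24a (3.19, range 1.77 to 25.1) came next by its median, followed by Epcam (1.65, 1.14 to 4.86), Prom1 (1.5, 0.648 to 7.11), Sox9 (1.28, 0.829 to 2.3), Sox4 (0.546, 0.317 to 1.37), Ncam1 (0.269, 0.112 to 0.681) and Cftr (0.258, 0.105 to 0.396), each overlapping with its neighbours in that order. The order of medians thus differed between genotypes for Prom1, Cd24a, Sox9 and Epcam, whose ranges overlapped in either genotype, and not for the other members.

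Co-variation between livers was measured on each liver's deviation from the mean of its own group, so that neither genotype nor day enters. For each of the 28 pairs of genes, Pearson's r and Spearman's rho were computed over the 19 livers of a genotype with 100000 permutations within groups, adjusted over all 56 relations. In HNKO livers 26 of 28 pairs were positive, with a median r of 0.40 and a range from -0.09 to 0.87, and 9 pairs passed the permutation test (14 before adjustment, and 10 by rho after it). When deviations were taken from the mean of group and label series instead, 5 pairs passed, with a median r of 0.48. In WT livers 18 of 28 were positive, with a median r of 0.11 and a range from -0.62 to 0.51, and no pair passed by r, before or after adjustment, or by rho after it. Whether the genotypes differ in this was not tested, and Spp1 varied less in WT than in HNKO livers, with SDs of 0.03 and 0.93 at day 3. Within the label series, the HNKO pairs were positive in 21 of 28 cases in the first (8 livers) and 26 of 28 in the second (11 livers), and the WT pairs in 16 and 19 cases.

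**Figure D3:**
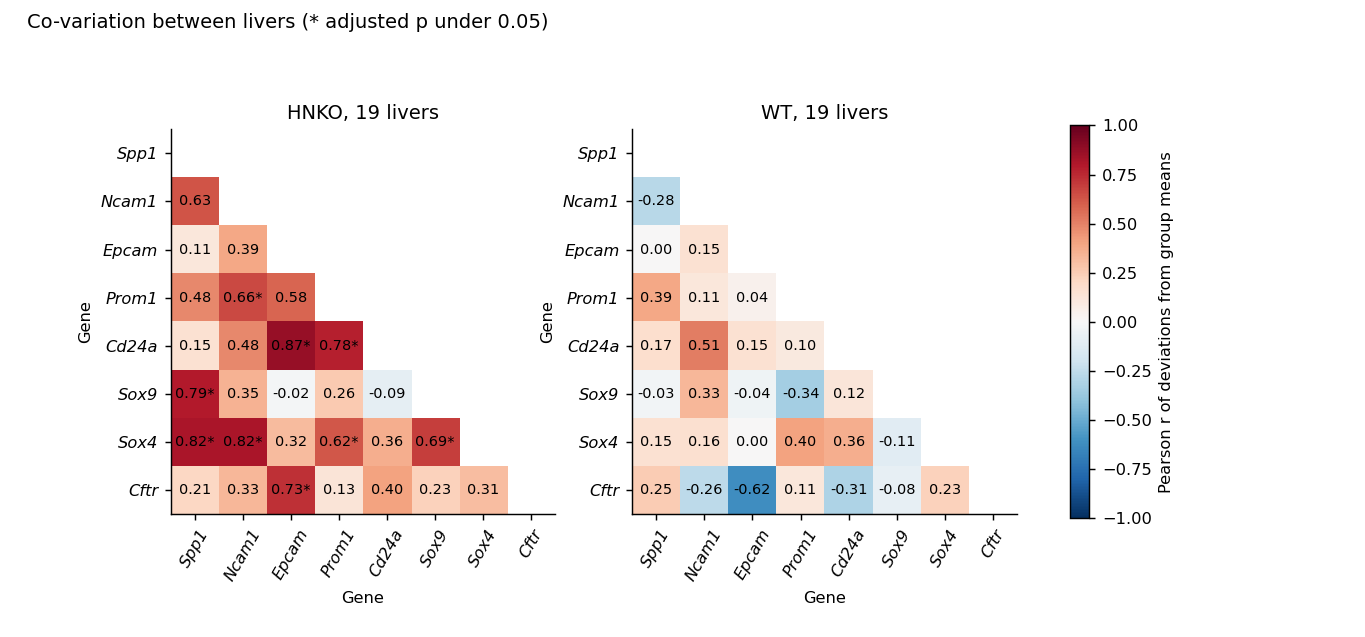
Pearson's r between each pair of genes over 19 HNKO livers (left) and 19 WT livers (right), computed on deviations from group means in log2 CPM, with stars where the permutation p adjusted over 56 relations was under 0.05. In HNKO livers, starred pairs link Sox4 with Spp1, Sox9, Ncam1 and Prom1, and Epcam with Cd24a and Cftr. Stars also link Spp1 with Sox9, and Prom1 with Ncam1 and Cd24a, while the WT panel has none.

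In HNKO livers Spp1 varied with Sox4 (r = 0.82, rho = 0.78, permutation p = 0.00062, adjusted p = 0.00694) and with Sox9 (r = 0.79, rho = 0.75, permutation p = 0.00013, adjusted p = 0.00504), and r stayed at 0.75 and 0.70 without the 2 livers farthest from the median of Spp1. Sox9 varied with Sox4 (r = 0.69, rho = 0.65, permutation adjusted p = 0.0108), and r was 0.71 in either label series. Ncam1 varied with Sox4 (r = 0.82, rho = 0.79, permutation adjusted p = 0.00504) and with Prom1 (r = 0.66, rho = 0.67, permutation adjusted p = 0.0362), and r stayed at 0.86 and 0.63 without the 2 farthest livers. Prom1 varied with Sox4 (r = 0.62, rho = 0.61, permutation adjusted p = 0.0362 by r but 0.0526 by rho) and with Cd24a (r = 0.78, rho = 0.78, permutation adjusted p = 0.00504). Epcam varied with Cftr (r = 0.73, rho = 0.85, permutation adjusted p = 0.00504), with r of 0.97 and 0.69 in the label series and 0.80 without the 2 farthest livers. Over these 8 pairs and Epcam with Cd24a, r lay between 0.56 and 0.86 without the 2 livers farthest from the median of the first gene, between 0.40 and 0.97 in the first label series and between 0.69 and 0.96 in the second. Against these, Spp1 and Epcam, which were both called higher at all 4 days, gave r = 0.11 (rho = 0.21, permutation p = 0.601, adjusted p = 0.803), and 0.36 without HNKO library 35 of day 12 (adjusted p = 0.377). Sox9 gave -0.02 with Epcam and -0.09 with Cd24a (permutation adjusted p = 0.97 and 0.839), and the sign turned without that library, to 0.34 and 0.37 (adjusted p = 0.377 and 0.232). In WT livers Epcam and Cftr gave r = -0.62 (rho = -0.34, permutation p = 0.121, adjusted p = 0.338), and -0.37 without the 2 farthest livers. By the median r with the other genes, Sox4 came first at 0.62 with 4 pairs past the threshold by r.

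The relation of Epcam with Cd24a was the strongest by r (0.87, rho = 0.72, permutation adjusted p = 0.015), and it lost its call without library 35. In that liver Cd24a was at 6.02 log2 CPM against 2.47 to 3.43 in the other 5 HNKO livers of day 12, Epcam at 3.42 against 1.37 to 2.15, and Prom1 at 5.67 against 2.41 to 3.88. Spp1 at 6.63 (others 6.53 to 7.69), Ncam1 at 1.65 (0.62 to 2.56) and Sox4 at 1.11 (0.91 to 1.65) were within the range of the others, Sox9 at 1.81 was just below it (1.97 to 2.80) and Cftr at 1.29 just above (-0.07 to 1.06). Without this liver, r of Epcam with Cd24a was 0.64 (permutation adjusted p = 0.0924) and 11 pairs passed in HNKO livers, with a median r of 0.59. Pairs of Cd24a with Ncam1 and with Sox4 were then at r = 0.83 each (permutation adjusted p = 0.00467 for both, against r = 0.48 and 0.36 with it), and Spp1 with Prom1 at 0.71 (adjusted p = 0.0387). Library 35 also had more of the duct keratin Krt19 (5.33 log2 CPM against 0.28 to 1.70), the mucin Muc1 (4.97 against 0.24 to 0.81) and the globin gene Hbb-bs (8.88 against 5.12 to 7.0). Of the exocrine pancreas genes tested, Ctrb1 was above the other livers (3.62 against -3.80 to 0.02), whereas Cpa1 (-2.88) and Cela2a (-0.63) were within their range. Of the intestinal genes tested, Lgals4 was above them (4.62 against 3.14 to 3.61) and Fabp2 was not (5.02 against 4.99 to 5.76), and the mean of the hepatocyte list was within the range of the others. The part of another tissue in this library was not tested.

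**Figure D4:**
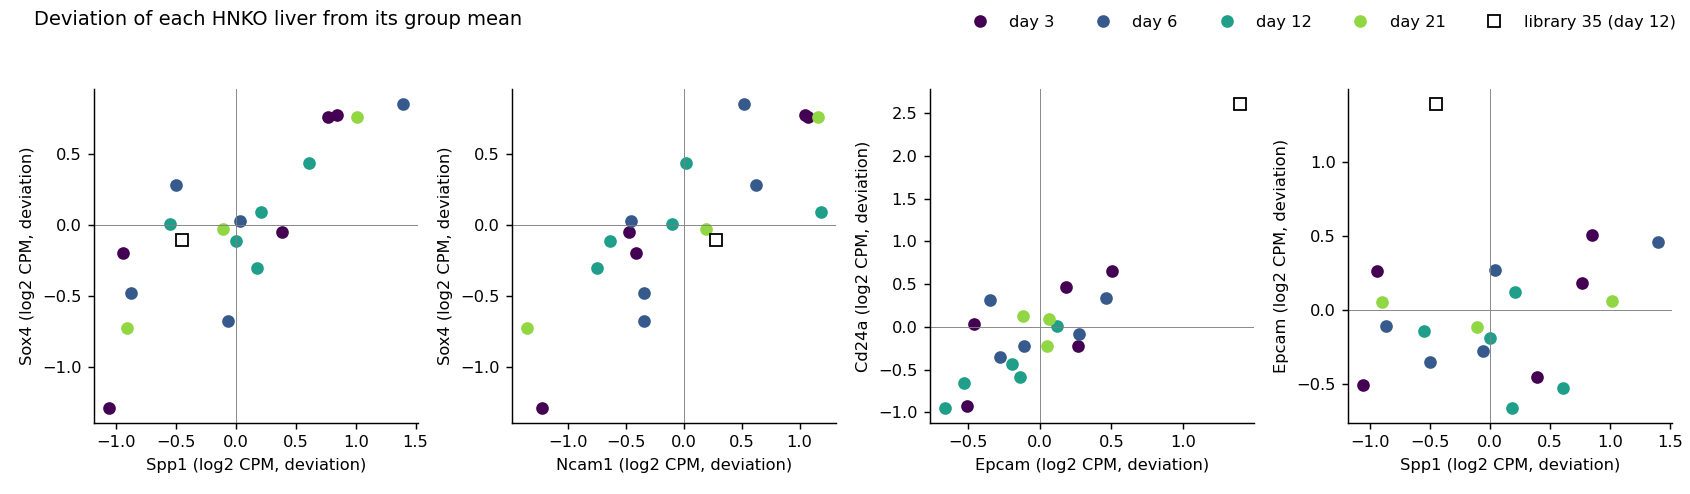
Deviation of each of 19 HNKO livers from its group mean (log2 CPM on both axes) for 4 pairs of genes, coloured by day, with library 35 as an open square. Spp1 with Sox4 and Ncam1 with Sox4 (r = 0.82 each) rise together across all days, Epcam with Cd24a (r = 0.87) includes library 35 at the far upper right, and Spp1 with Epcam is at r = 0.11 with that library and 0.36 without it.

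The members were set beside 11 other measures of each liver, namely the mean level of the duct structure list, 8 lists for other cell types or for proliferation, the total count and the mitochondrial share, over 176 relations in both genotypes. In HNKO livers 5 genes varied with the duct structure list (Krt7, Krt19, Krt23, Cldn4, Cldn7, Muc1 and Tspan8): Cd24a (r = 0.89, rho = 0.90, permutation adjusted p = 0.00235), Prom1 (0.87, rho = 0.81, 0.00739), Epcam (0.77, rho = 0.61, 0.0323 by r but 0.127 by rho, and r = 0.54 without the 2 farthest livers), Ncam1 (0.76, rho = 0.81, 0.0182) and Sox4 (0.69, rho = 0.79, 0.0195). Without library 35, r was 0.90, 0.80, 0.59, 0.90 and 0.93 in that order. Spp1 (r = 0.49), Cftr (0.39) and Sox9 (0.24) missed the threshold with this list (permutation adjusted p = 0.205, 0.38 and 0.613), and without library 35 they were at 0.77, 0.30 and 0.57. In WT livers Cd24a alone varied with it (r = 0.70, rho = 0.61, permutation adjusted p = 0.0323 by r and 0.127 by rho). In the first label series the HNKO values with this list were 0.35 for Prom1 and 0.43 for Epcam, against 0.98 and 0.88 in the second, and 0.86 to 0.94 for Sox4, Ncam1 and Cd24a. Cftr in WT livers varied with the neutrophil list (r = 0.65, rho = 0.61, permutation adjusted p = 0.0371 by r and 0.0636 by rho), at 0.39 without the 2 farthest livers and 0.14 in the second series.

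Several members moved with measures of other cells as well. Ncam1 and Sox4 varied with the stellate cell and fibroblast list, which holds collagens and Pdgfrb, at r = 0.95 and 0.91 (rho = 0.90 and 0.88, permutation adjusted p = 0.00235 for both), Spp1 at 0.73 (adjusted p = 0.0371) and Prom1 at 0.71 (adjusted p = 0.0323). Spp1 also varied with the macrophage (r = 0.70), neutrophil (0.73) and proliferation (0.76) lists, Sox4 with the macrophage list (0.69) and Sox9 with the neutrophil list (0.79), all with permutation adjusted p between 0.0114 and 0.0479. The hepatocyte list varied inversely with 4 genes past the threshold, with r = -0.87 for Spp1, -0.81 for Sox4, -0.72 for Ncam1 and -0.71 for Sox9 (permutation adjusted p = 0.00739, 0.0306, 0.0323 and 0.0145). Ncam1 missed the threshold with the hepatocyte list by rho (adjusted p = 0.056). Cd24a passed with the stellate list by rho (0.71, permutation adjusted p = 0.00792) but not by r (0.47, adjusted p = 0.177), and without library 35 its r was 0.90 with that list, 0.70 with the macrophage list, 0.66 with the proliferation list and -0.65 with the hepatocyte list (-0.29 with library 35). Prom1 was then at -0.71 with the hepatocyte list, 0.76 with the macrophage list and 0.63 with the neutrophil list, against -0.56, 0.53 and 0.28 with it. Epcam and Cftr passed with none of these other lists in HNKO livers, by r or by rho. Within the label series the relations of Spp1, Ncam1, Prom1 and Sox4 with the stellate list lay between 0.64 and 0.98 and those of Spp1, Ncam1, Sox9 and Sox4 with the hepatocyte list between -0.99 and -0.45, but Sox4 with the macrophage list was at 0.06 in the first series and 0.91 in the second. Sox4 passed with the T and NK cell list by rho (0.72, permutation adjusted p = 0.0361) but not by r (0.66, adjusted p = 0.0534). Total count, mitochondrial share, and the endothelial and exocrine pancreas lists passed with no member by r or by rho on these deviations within groups.

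**Figure D5:**
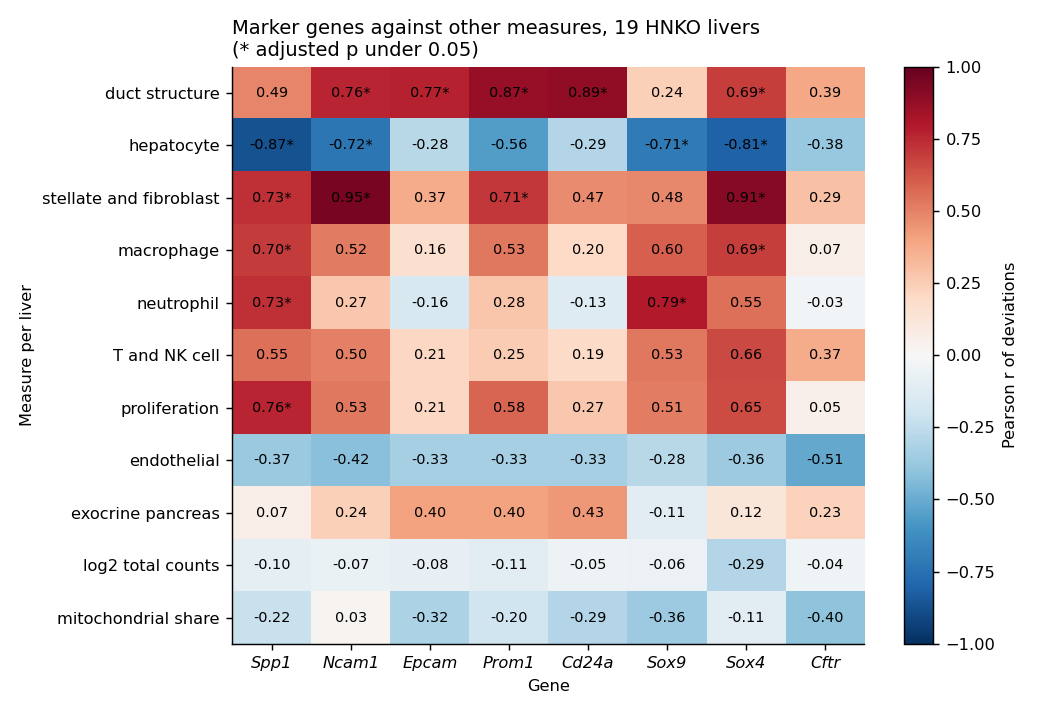
Pearson's r over 19 HNKO livers between each gene (columns) and 11 measures of the same liver (rows), on deviations from group means, with stars where the permutation p adjusted over 176 relations was under 0.05. Ncam1 (0.95) and Sox4 (0.91) are darkest in the stellate and fibroblast row, Cd24a (0.89) and Prom1 (0.87) in the duct structure row, and Spp1 is most negative in the hepatocyte row (-0.87).

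The same cell type lists also differed between genotypes, and their part in the results was not tested. The share of mitochondrial counts did so too: it was 2.59% to 3.18% in HNKO and 3.85% to 7.62% in WT livers at day 21, and 4.07% to 6.03% against 6.14% to 7.5% at day 6, with no overlap at either day. It was also low in libraries 35 to 40 as a whole (2.59% to 3.85%), which include WT library 39 and HNKO livers of days 12 and 21. The summed level of the 8 stellate and fibroblast genes ranged from 135 to 147 CPM in WT and from 274 to 1060 in HNKO livers at day 6, and 3, 5, 3 and 3 of the 8 were called higher from day 3 to day 21, with sums that overlapped at days 3 and 12. Neutrophil genes, with Ly6g near 0, ranged from 0.842 to 1.69 CPM in WT and from 7.18 to 28.3 in HNKO livers at day 6, and 0, 4, 1 and 1 of the 4 tested were called higher in time order, again with overlapping sums at days 3 (0.955 to 2.6 against 1.43 to 5.84) and 12. Of the 8 macrophage genes, 1, 4, 2 and 2 were called higher, and of the 4 proliferation genes 0, 1, 0 and 2. Over these 4 lists the counts stand against 2.95%, 8.42%, 4.56% and 2.21% of all genes. Without library 35 the day 12 count of macrophage genes was 4 and that of neutrophil genes 2, against 1 with it. The hepatocyte list had 2 of 7 genes called lower at day 6 (4.37% of all genes) and none at days 3, 12 and 21 (1.71%, 3.27% and 0.916%), and its sum was 112000 to 124000 CPM in WT and 54300 to 97200 in HNKO livers at day 6, with no overlap. The erythroid, Schwann cell, and T and NK cell lists had no call, B cell, endothelial and intestinal lists had 1 or 2 calls in all, each lower in HNKO, and the exocrine pancreas list had 1, Ctrb1 at day 12. At day 3 an exocrine pancreas sum of 23.9 CPM was reached by HNKO library 23, against 0.476 to 1.65 in WT. That liver was also the highest of the day for Prom1 (5.06 log2 CPM) and Ncam1 (2.52) and the next to highest for Spp1 (8.49) and Sox4 (2.72). Without it 6 members were still called higher at day 3, and Prom1 was at 0.67 (edgeR adjusted p = 0.612) instead of 1.08.

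Other duct genes were fixed in 4 lists, which were chosen with earlier results of these data known. Of the 7 duct structure genes tested, 4, 4, 5 and 3 were called higher from day 3 to day 21 with none lower, against 2.95%, 8.42%, 4.56% and 2.21% of all genes, and their median log2 fold change was 1.56, 2.02, 2.74 and 1.6. The tight junction genes Cldn4 and Cldn7 and the tetraspanin gene Tspan8 were called at all 4 days, Cldn4 at 3.89, 4.12, 2.82 and 3.42 (edgeR adjusted p = 0.00333, 0.000975, 0.0109 and 0.0135). The duct keratin Krt7 was called at days 3 and 6 (1.56 and 2.02, edgeR adjusted p = 0.0319 and 0.00531), and Krt19 at day 12 alone (2.74, adjusted p = 0.0101). Muc1 was at 1.38 and Krt23 at -1.16 at day 6 (edgeR adjusted p = 0.306 and 0.167). Without library 35 the day 12 count fell from 5 to 2, with a median of 0.82, when 4.27% of all genes were called higher. Krt19 was then at 0.82 (adjusted p = 0.185), Muc1 at 0.72 (0.315) and Cldn7 at 1.10 (0.0836), while Cldn4 and Tspan8 were still called.

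Of the 8 duct transport and signalling genes tested, 5, 5, 3 and 4 were called higher against the same 2.95%, 8.42%, 4.56% and 2.21% of all genes, with medians of 1.0, 1.06, 0.96 and 1.23. Bicc1 and Pkhd1, genes whose loss causes cystic kidney or liver disease, and Slc10a2, the bile acid uptake transporter of cholangiocytes, were called at all 4 days. Bicc1 was at 1.87, 1.82, 1.37 and 1.71, Slc10a2 at 1.88, 1.68, 1.88 and 1.67, and Pkhd1 at 0.61, 0.44, 0.55 and 0.80 (edgeR adjusted p of 0.0369 or less). The anion exchanger gene Slc4a2 (0.03, adjusted p = 0.862) and the water channel gene Aqp1 (-0.14, adjusted p = 0.555) were not called at day 6, nor at any other day with all 38 libraries. Without library 35 the day 12 count was 4, and Slc4a2 was among them (0.25, edgeR adjusted p = 0.0335). Ggt1 did not pass the filter.

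Of the 8 duct transcription factor genes, 2, 2, 2 and 0 were called higher (2.95%, 8.42%, 4.56% and 2.21% of all genes), and these were Elf3 (2.54, 3.57 and 3.23 at days 3, 6 and 12) and Ehf (1.44, 1.73 and 1.62), epithelial factors of the ETS family, with edgeR adjusted p of 0.0355 or less. Without library 35 Ehf at day 12 was at 0.82 (adjusted p = 0.0588) and Elf3 at 2.43 (adjusted p = 0.0207). Onecut1 was at -0.44 at day 6 (edgeR adjusted p = 0.609). Of the 8 progenitor signal genes tested, 2, 3, 0 and 0 were called higher, against the same 2.95%, 8.42%, 4.56% and 2.21% of all genes. Without library 35, 1 was called higher at day 12, Tnfrsf12a (1.70, edgeR adjusted p = 0.0417), and 1 lower, Fgfr2 (-0.41, adjusted p = 0.0307). Tnfrsf12a, the receptor of the cytokine TWEAK that makes progenitor cells divide, was at 2.01 and 2.15 at days 3 and 6 (edgeR adjusted p = 0.0223 and 0.00951), and the Notch ligand gene Jag1 at 0.65 and 0.67 (adjusted p = 0.00813 and 0.00362). Lgr5 (0.02) and Fgfr2 (0.08) were not called at day 6 (adjusted p = 0.974 and 0.791), and Dlk1 had no reads in 28 libraries.

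The genes whose level was most like the mean of the 8 members over all 38 libraries were Ddr1 and Bicc1 (r = 0.96 each), Cpne8 (0.95), Vill, Adamtsl2, Cx3cl1, Frzb and Sh3pxd2b (0.94 each), and Flna and Emp1 (0.93 each). These values describe libraries that share genotype groups and carry no test. On deviations from group means over the same 38 libraries, the closest gene was Tnfrsf12a for Spp1 (r = 0.91), Cavin1 for Ncam1 (0.83), Ehf for Epcam (0.80) and Tmprss2 for Prom1 (0.81). It was Map3k9 for Cd24a (0.87), followed by Krt19 (0.85), Krt18 for Sox9 (0.70), Gm36283 for Sox4 (0.84), and Gm26348 and Gm48236 for Cftr (0.75 each). These are the highest values among all tested genes, carry no test, and include HNKO library 35 of day 12. In that liver Krt19 was at 5.33 log2 CPM (0.28 to 1.70 in the other HNKO livers of day 12) and Ehf at 4.25 (1.11 to 2.44). Values without it are not given.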

How the data were processed

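RNA-seq of whole liver was used, with libraries of rRNA-depleted total RNA made with a stranded kit and sequenced as 51-bp paired ends. The authors deposited raw read counts per gene, and the submitters' processing notes name STAR 2.7.2b, featureCounts 1.6.4 and edgeR 3.26.0 with build GRCm38. Here counts of 38 libraries were filtered (filterByExpr by group, minimum count 10), normalised by TMM and fitted with group means for the 8 groups by the quasi-likelihood test of edgeR 4.0.16 in R 4.3.3, with Benjamini-Hochberg adjustment over 20297 genes. Levels are log2 CPM with a prior count of 2. DESeq2 1.42.0 was an alternative. Correlations used numpy 2.4.6 on deviations from group means. Scripts were tested on simulated data.

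The 8 members and all gene lists were chosen with earlier results of these data known. Named list genes were those called at all 4 days, and at day 6 the 2 with the smallest and the 2 with the largest p in each duct list. Some genes and 1 motif that these rules cover are not reported here. Other genes named (list genes beyond these, and those of library 35) were chosen after their values were seen. Each library is taken as 1 mouse. No pair of libraries within a group agreed within sampling noise (lowest chi-square per gene 14 over 74 pairs). Promoter windows are from RefSeq, and gene names and positions from GENCODE M21. Alternatives were another normalisation, DESeq2, other filters, a prior count of 0.5, all 40 libraries, the label series as a covariate, fits of the 2 groups of a day, and leaving out each library. With 16151037 counts in the shallowest library, Cftr had no more than 17 counts in any WT library, and counting error limits Cftr and Ncam1 most.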

Additional observations from a re-analysis of the deposited data

Results flagged for a closer look

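Of 56 combinations of gene and group with 4 or more livers, 3 held a liver far from the others by Dixon's test, which flags about 1 in 20 by chance. Cd24a in HNKO library 35 of day 12 was at 6.02 log2 CPM against 2.47 to 3.43 in the other 5 livers. Sox4 was at -0.56 in WT library 34 of day 12 against 0.11 to 0.36 in the others, and at -0.78 in WT library 41 of day 21 against 0.28 to 0.63, both low WT livers whose removal ended the Sox4 call of their day.

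The 2 HNKO libraries of day 21 described as Failed QC entered only the alternative with all 40 libraries. The authors excluded 2 time course samples for skewed GC content, many duplicated reads and lower alignment, and because they clustered apart. Levels in libraries 17 and 18 are given on log2 CPM of all 40 libraries. The share of all genes above every WT liver of that day was not counted. In library 17 Spp1 was at 6.63 and in library 18 at 7.88, against 4.91 to 5.30 in WT livers, and Cd24a at 2.47 and 3.40 against 0.58 to 1.56. Ncam1 was at 2.86 and -0.15 (WT -0.99 to -0.35), Sox9 at 3.49 and 2.02 (WT 1.15 to 1.82) and Sox4 at 3.49 and 1.32 (WT -0.77 to 0.64). Library 18 was also above WT livers for Epcam (2.33 against 0.21 to 0.61), Prom1 (4.36 against 1.24 to 3.90) and Cftr (1.15 against -2.38 to -1.58). Library 17 had no read of Epcam or Cftr and lay within the WT range for Prom1 (3.29).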

How the results depend on the processing

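Over the 4 days the counts of members called higher, and the count of 0 for the interaction and for the day effect in WT livers, stayed within 1.5 times of the values reported under the alternatives other than leaving out a library (the fit of the 2 groups of a day gives no interaction or day effect). In HNKO livers the count of members with a day effect was 0, but 1 (Spp1) with DESeq2 and 0 to 2 when leaving out a library. With 1 library left out, members called higher numbered 5 to 7 at day 3, 5 to 7 at day 6, 4 to 6 at day 12 and 2 to 6 at day 21, where 2 was without HNKO library 37 and 3 without WT library 41. Pairs past the threshold in HNKO livers numbered 5, not 9, both when deviations were taken from the mean of group and label series and with all 40 libraries, and 11 without HNKO library 35. The median r was 0.34 to 0.59 in HNKO and 0.05 to 0.12 in WT livers without 1 library, with 0.59 without library 35. Prom1 at day 21 ranged from -0.34 to 0.96 without 1 library. With all 40 libraries Epcam lost its calls at days 3, 6 and 21, Ncam1 and Sox4 at day 12, and Sox9 gained one at day 21, and the permutation test of Epcam at day 21 no longer passed (p = 0.873, exact). Cd24a was called at day 3 by DESeq2 (adjusted p = 0.0339), with the label series as a covariate (0.0485) and in the fit of the 2 groups alone (0.0433), and not at day 21 with the label series (0.0505). Sox4 at day 21 was not called in the fit of the 2 groups (adjusted p = 0.0541). Where a value does not show it, the cause was not tested. Ncam1 and Cftr had under 10 counts in some libraries, so the filter that asks for 10 in every library gave them no value.

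Counts over all genes higher and lower at days 3, 6, 12 and 21 were 598 and 347, 1709 and 887, 925 and 663, and 448 and 186. They were 210 and 121, 859 and 462, 368 and 256, and 906 and 444 with all 40 libraries, 267 and 153, 1056 and 269, 546 and 321, and 488 and 172 with the 2 groups of a day, and 814 and 614 at day 3 and 672 and 322 at day 21 with DESeq2. With no filter they were 444 and 186, 1471 and 454, 727 and 359, and 370 and 86 in time order. No paired analysis was possible because each library number occurs once.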
